A study of Homo sapiens with 2 samples.

Results

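The epidermal growth factor (EGF) family ligands and their ERBB receptor tyrosine kinases were described in H1299, an established line grown from a human non-small cell lung tumour. The members were every probe set annotated to 9 genes, the receptors EGFR, ERBB2 and ERBB3 and the ligands HBEGF, AREG, EREG, TGFA, BTC and NRG1. They came to 36 of the 49395 probe sets on the array and to 8 of the 18132 genes represented; AREG was not analysed here. In one sample the cells had been transiently transfected by lipid reagent with a pcDNA3.1 plasmid carrying EGR1, an immediate-early zinc-finger transcription factor. In the other they had received the empty pcDNA3.1 plasmid by the same route. RNA was taken 48 hours after transfection and hybridised to 1 Affymetrix array per group. Whether a sample pooled several cultures, and what share of the cells took up the plasmid, is not given in the sources used here. With 1 array per group there was no replicate error and no test, and every difference below describes these 2 arrays. The comparison addresses what EGR1 changes in the transcripts of lung cancer cells.

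ERBB receptors sit in the plasma membrane and pair up when a ligand of the EGF family binds, which starts signalling through RAS and ERK and through PI3K and AKT. The ligands are made as membrane-anchored precursors and released by cell-surface metalloproteinases. HBEGF, EREG and BTC bind EGFR and ERBB4, TGFA and AREG bind EGFR, and NRG1 binds ERBB3 and ERBB4; ERBB2 has no known ligand of its own and acts as a partner of the others. EGFR is a common driver of lung adenocarcinoma, and EGR1 is itself a transcript that growth factor signalling induces.

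Transfection with EGR1 was accompanied by small differences in this family. By their brightest probe sets HBEGF was 1.21-fold higher in the EGR1 array and ERBB2 1.17-fold higher. EGFR read lower in all 5 of its probe sets past the floor, by log2 differences from -0.39 to -0.10. A shared lower direction was common, seen in 34.4% of genes read by several such probe sets. Those genes were not matched to EGFR in their number of probe sets. The brightest EGFR probe set, at -0.10, lay within the middle 50% of all genes past the floor (-0.12 to 0.10). The 3 EGFR probe sets under the floor gave 0, 0.18 and 0.23. TGFA and NRG1 had probe sets on both sides of 0, and EREG, BTC and ERBB3 were dim. No member probe set reached 1.5-fold in either direction. Values are log2 levels made by the authors with RMA, and a difference is the EGR1 array minus the empty-vector array. A floor on signal was set at the 40th percentile of mean levels over the array (log2 5.22). Levels of different probe sets were not set against each other, because each probe set has its own hybridisation efficiency.

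Of the 36 member probe sets, 20 lay past the floor and 16 under it. None of the 20 was at or beyond 1.5-fold higher and none at or beyond 1.5-fold lower, where 0.87% and 0.614% of the 29650 probe sets past the floor were. Among genes, represented by their brightest probe set, 7 members lay past the floor and EREG lay under it. None of these 7 reached 1.5-fold in either direction, against 1.17% of the 12652 genes past the floor. At a log2 difference of 0.32 or more, 0 of the 20 probe sets were higher and 2 lower, against 4.08% and 5% of all probe sets past the floor. Both lower probe sets belonged to EGFR. Nothing about the family as a whole is read from these counts. The highest and lowest differences over all 36 were 0.34 in an NRG1 probe set under the floor and -0.39 in an EGFR probe set. The median absolute difference was 0.129 over the 20 member probe sets past the floor and 0.116 over all probe sets past the floor.

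**Figure D1:**
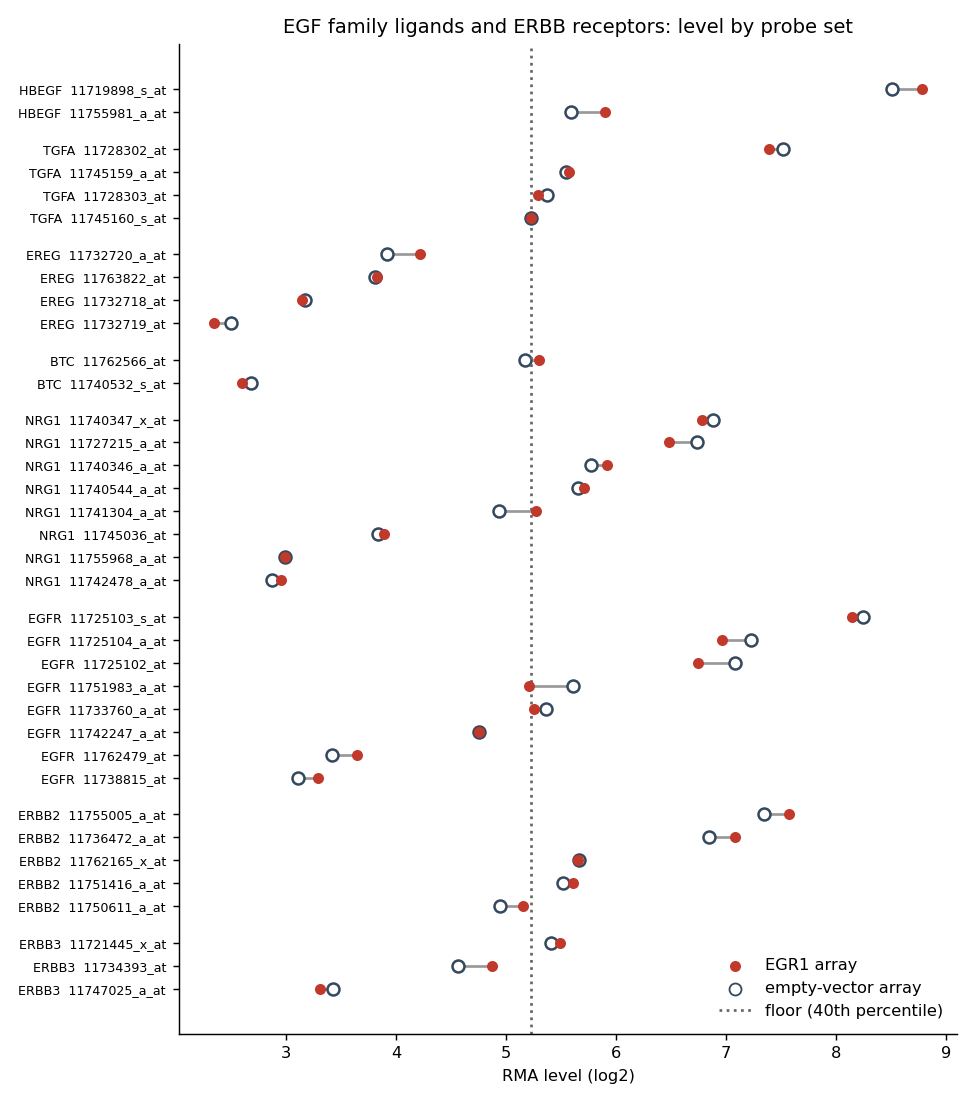
Log2 RMA level (x axis) of each of the 36 member probe sets (rows, grouped by gene with the brightest on top) in the EGR1 array (filled) and the empty-vector array (open); the dotted line is the floor of 5.22. The points of each row lie close together, and the longest bar belongs to EGFR 11751983_a_at (5.21 against 5.61).

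The plasmid's own gene was checked. Of the 6 EGR1 probe sets, 11717861_a_at read 11.43 in the EGR1 array and 7.70 in the empty-vector array, and 11751643_x_at read 9.92 and 7.17. The other 4 were lower in the EGR1 array, by log2 differences from -0.39 to -0.20. Where each lies relative to the plasmid's insert was not established, and a probe set outside the insert checks nothing. The line's labelled origin was set against marker genes. All 4 mesenchymal markers lay past the floor, with differences of -0.07 in VIM (13.66 in the EGR1 array and 13.73 in the empty-vector array), 0.04 in ZEB1 (6 of its 7 probe sets below 0), 0.08 in CDH2 and 0.14 in FN1 by the brightest probe set. By the brightest probe set the epithelial keratins KRT8 and KRT18 were 3.99-fold and 3.39-fold higher in the EGR1 array, and KRT19 was 1.18-fold higher. All probe sets of KRT8 and KRT18 were of the _x_at type, which can bind related transcripts, and those of KRT8 ran from 2.50-fold to 3.99-fold. The epithelial genes EPCAM (3.75 and 4.14) and CDH1 lay under the floor in both arrays. Of 5 lung epithelial genes 4 lay past the floor, and the 5 differed by -0.14 (SFTPC) to 0.30 (NKX2-1). Of the other cell types' markers, 1 of 5 fibroblast, 1 of 4 measured leukocyte and 3 of 4 endothelial genes lay past the floor, with differences of -0.07 in the fibroblast gene PDGFRB, 0.30 in the leukocyte gene CD3E and -0.12 to 0.20 in the endothelial genes. RMA gives no detection call, so a level under the floor does not show that a transcript is absent. Nor does a level past it show that one is present. CD3E read 5.49 in the EGR1 array and 5.18 in the empty-vector array, and VWF read 6.21 in both. Some member probe sets past the floor, such as EGFR 11733760_a_at (5.25 and 5.36), read no higher than VWF. The part of these markers in the values below was not tested.

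The promoter windows of HBEGF and EGFR, which had 2 or more probe sets past the floor that all went 1 way, and that of TGFA, whose probe sets past the floor went both ways, are shown because EGR1 binds GC-rich elements near start sites. Each runs from 250 bases before to 50 bases after a RefSeq start site (GRCh38.p14) and is written 5′ to 3′ on the gene's strand. Capitals mark GC boxes, the letters GGGCGG or their reverse complement CCGCCC, and neighbouring matches may overlap. A GC box is not the EGR1 element GCGNGGGCG, which was found in none of the windows shown, so the capitals mark no EGR1 site. HBEGF is at chr5:140346554-140346853 on the minus strand, EGFR at chr7:55018767-55019066 on the plus strand and TGFA at chr2:70553777-70554076 on the minus strand.
HBEGF: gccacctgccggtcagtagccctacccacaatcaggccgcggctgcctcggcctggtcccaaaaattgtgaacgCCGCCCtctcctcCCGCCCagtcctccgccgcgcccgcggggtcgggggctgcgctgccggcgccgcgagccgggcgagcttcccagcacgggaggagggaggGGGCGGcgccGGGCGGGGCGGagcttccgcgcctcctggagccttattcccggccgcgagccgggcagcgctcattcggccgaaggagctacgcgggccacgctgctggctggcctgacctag
EGFR: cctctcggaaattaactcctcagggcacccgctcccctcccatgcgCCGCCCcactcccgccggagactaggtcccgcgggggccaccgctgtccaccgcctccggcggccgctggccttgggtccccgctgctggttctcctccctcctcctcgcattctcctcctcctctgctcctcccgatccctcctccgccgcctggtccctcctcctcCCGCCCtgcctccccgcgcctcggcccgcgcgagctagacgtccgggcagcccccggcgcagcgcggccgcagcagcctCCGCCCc
TGFA: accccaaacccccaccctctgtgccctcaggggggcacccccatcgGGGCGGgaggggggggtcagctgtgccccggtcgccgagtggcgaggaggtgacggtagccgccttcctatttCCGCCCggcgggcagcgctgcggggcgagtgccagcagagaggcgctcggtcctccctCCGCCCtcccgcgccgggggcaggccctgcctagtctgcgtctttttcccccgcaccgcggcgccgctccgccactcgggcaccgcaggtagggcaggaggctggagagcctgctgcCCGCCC
HBEGF held 5 GC boxes, EGFR 3 and TGFA 4, and the windows were 75%, 75.3% and 75.3% G or C. A second window of EGFR and a second of TGFA, at other start sites, held 0. NRG1 was left out of this search, and no window was at hand for ERBB3. For the other 7 member genes, AREG included, RefSeq gave 9 windows. Of these 5 held a GC box, against 45% of all 35116 promoter windows of the same length. The ERBB2 and EREG windows held 0, and those of AREG and BTC 1 each. The EGR1 element GCGNGGGCG, searched on both strands, was found in 0 of the 9 windows and in 9.43% of all windows. The element and the GC box can overlap. A missing match says only that these letters are not in the window, and a match is a run of letters and not a shown site.

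HBEGF, the heparin-binding ligand that also serves as the receptor for diphtheria toxin, gave the most even reading of the family. Its brighter probe set, 11719898_s_at, read 8.78 in the EGR1 array and 8.51 in the empty-vector array. The dimmer one, 11755981_a_at, read 5.90 in the EGR1 array and 5.59 in the empty-vector array. The arrays read a whole culture, so a difference in all cells and a larger one in the transfected cells alone cannot be told apart, nor can fewer cells of a kind and less RNA per cell. Both HBEGF probe sets were higher in the EGR1 array, by 0.28 and 0.31 on the log2 scale. The mean difference was 0.29 ± 0.03 (SD, n = 2 probe sets, which are no replicates of the condition). In general, over the 7113 genes that had 2 or more probe sets past the floor, probe sets of 1 gene differed by a pooled SD of 0.15. Of these genes, which were not matched to HBEGF in number of probe sets, 3.28% had a mean difference at least as high. All their probe sets were higher in 21.2%. By the brightest probe set alone, 6.5% of the 12652 genes past the floor differed at least as much upward.

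TGFA, transforming growth factor alpha, a ligand of EGFR that many carcinomas make, had 4 probe sets with log2 differences from -0.13 to 0.03. The brightest, 11728302_at, read 7.39 in the EGR1 array and 7.51 in the empty-vector array. The probe set 11745160_s_at read 5.22 in both arrays, identical to the last digit, and lay just under the floor. Identical values were found in 3 member probe sets (1 each of TGFA, NRG1 and EGFR) and in 5.29% of all probe sets. No TGFA probe set differed by as much as the pooled SD between probe sets of one gene.

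EREG, the gene of epiregulin, was under the floor in all 4 probe sets, which read 2.34 to 4.21 in the EGR1 array and 2.50 to 3.91 in the empty-vector array. Its brightest probe set, 11732720_a_at, was higher by 0.30 on the log2 scale (4.21 and 3.91), and another, 11732719_at, was lower by 0.16 (2.34 and 2.50). The probe sets went both ways, 2 up and 2 down, with a mean of 0.03 ± 0.19 (SD, n = 4 probe sets). BTC, the gene of betacellulin, was no clearer. Its probe set 11762566_at read 5.30 in the EGR1 array and 5.17 in the empty-vector array, a level that straddles the floor, and 11740532_s_at read 2.60 and 2.68, far under it.

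NRG1 encodes neuregulin 1, whose many isoforms differ in their ends and arise from several promoters. Its 8 probe sets did not share a direction: 5 were higher in the EGR1 array, 2 were lower and 1 was identical. The brightest, 11740347_x_at, read 6.78 in the EGR1 array and 6.88 in the empty-vector array. The lowest difference was in 11727215_a_at, which read 6.48 in the EGR1 array and 6.74 in the empty-vector array. The highest was in 11741304_a_at, at 5.27 in the EGR1 array and 4.93 in the empty-vector array, with a mean level under the floor. Over the 4 probe sets past the floor the mean was -0.04 ± 0.18 (SD). That spread is near the pooled 0.15 found for genes in general, so these differences between NRG1 probe sets are of the size seen among probe sets of one gene elsewhere on the arrays, and which isoform each probe set reads was not established.

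EGFR, the receptor shared by most of these ligands, was read by 8 probe sets. All 5 past the floor were lower in the EGR1 array. The brightest, 11725103_s_at, read 8.15 in the EGR1 array and 8.24 in the empty-vector array. Next, 11725104_a_at read 6.96 in the EGR1 array and 7.23 in the empty-vector array. The probe set 11725102_at read 6.74 in the EGR1 array and 7.08 in the empty-vector array. These 3 cover the EGFR probe sets well above the floor, and the smallest difference was in the brightest one. Of the dimmer pair past the floor, 11751983_a_at read 5.21 in the EGR1 array and 5.61 in the empty-vector array, and 11733760_a_at read 5.25 and 5.36. The mean over these 5 was -0.24 ± 0.13 (SD, n = 5 probe sets). Of the 7113 genes read by several such probe sets, 7.18% had a mean difference at least as low and 34.4% had all such probe sets lower. Those genes had 2 or more such probe sets and were not matched to the 5 of EGFR. The other 3 EGFR probe sets, under the floor, gave 0, 0.18 and 0.23. By the platform annotation 3 EGFR probe sets (11742247_a_at, 11733760_a_at and 11738815_at) were designed on RefSeq transcripts of shortened receptor forms that lack the kinase domain, with differences of 0, -0.11 and 0.18. Which transcripts these probe sets bind was not established, so the values were not read as isoform levels.

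ERBB2, the receptor amplified in some breast and lung cancers, had 5 probe sets, of which 4 were higher in the EGR1 array. The brightest, 11755005_a_at, read 7.57 in the EGR1 array and 7.34 in the empty-vector array. The next, 11736472_a_at, read 7.08 in the EGR1 array and 6.84 in the empty-vector array. These differences, 0.22 and 0.24, were close to each other, and 11750611_a_at, under the floor, gave 0.22 as well. The remaining ones past the floor were nearer to 0, with 0.08 in 11751416_a_at and -0.01 in 11762165_x_at, whose _x_at suffix marks probes that may also bind similar transcripts. Over the 4 probe sets past the floor the mean was 0.13 ± 0.12 (SD), and 14% of genes read by several such probe sets had a mean at least as high. Those genes were not matched to ERBB2 in their number of probe sets. The ranges of ERBB2 (-0.01 to 0.24) and EGFR (-0.39 to -0.10) over probe sets past the floor did not overlap, which is a statement about probe sets of these 2 arrays and not a test. The EGFR probe sets under the floor (0, 0.18 and 0.23) lay within that ERBB2 range. How often the ranges of 2 genes lie apart on these arrays was not counted, so nothing is read from the gap.

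ERBB3, a receptor with an impaired kinase that signals through its partners, had 1 probe set past the floor. This was 11721445_x_at, at 5.49 in the EGR1 array and 5.41 in the empty-vector array. The others were under it, with 0.31 in 11734393_at (4.87 and 4.56) and -0.13 in 11747025_a_at (3.30 and 3.43). The first of these was designed on a RefSeq transcript of a short secreted form of the receptor. The probe sets of ERBB3 thus went both ways, and each lay near the floor or under it.

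**Figure D2:**
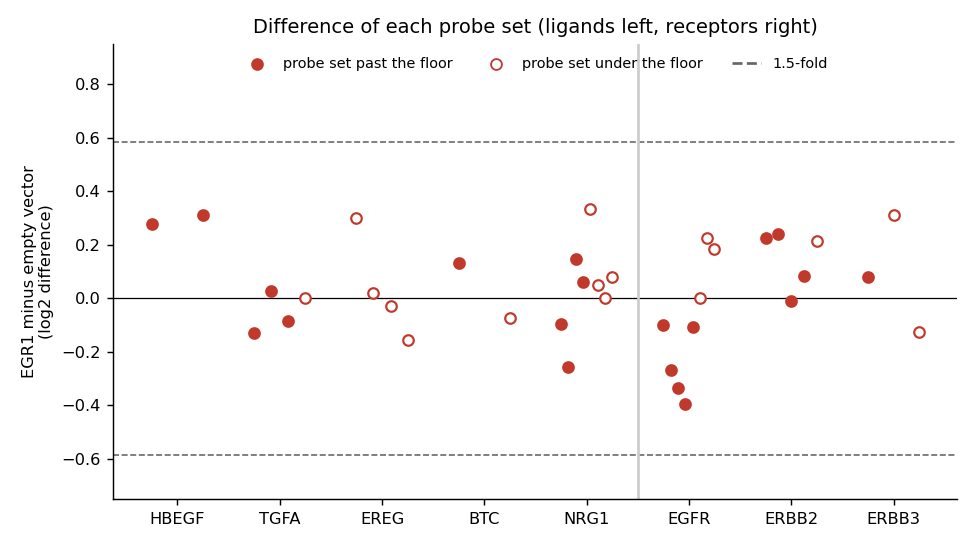
Log2 difference, EGR1 minus empty vector (y axis), of each member probe set, with genes on the x axis (ligands left of the vertical line, receptors right) and probe sets of a gene ordered from brightest to dimmest; filled points lie past the floor, open points under it, and dashed lines mark 1.5-fold. The HBEGF points sit at 0.28 and 0.31, the filled EGFR points at or below -0.10, and no point reaches a dashed line.

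Over the 8 measured members the median difference by the brightest probe set was 0.11, and over the 7 past the floor it was 0.08, beside -0.02 over all 12652 genes past the floor. Without _x_at and _s_at probe sets the members' median was 0.00083, and with the floor at the 60th percentile it was -0.10, so it has no settled direction. By that probe set 5 members were higher and 3 lower in the EGR1 array. The middle 50% of all genes past the floor ran from -0.12 to 0.10, and the middle 90% from -0.28 to 0.31. EREG (0.30), HBEGF (0.28) and ERBB2 (0.22) lay above the middle 50%, as did BTC (0.13), and TGFA (-0.13) lay below it. ERBB3, NRG1 and EGFR lay within it, and all 8 lay within the middle 90%.

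**Figure D3:**
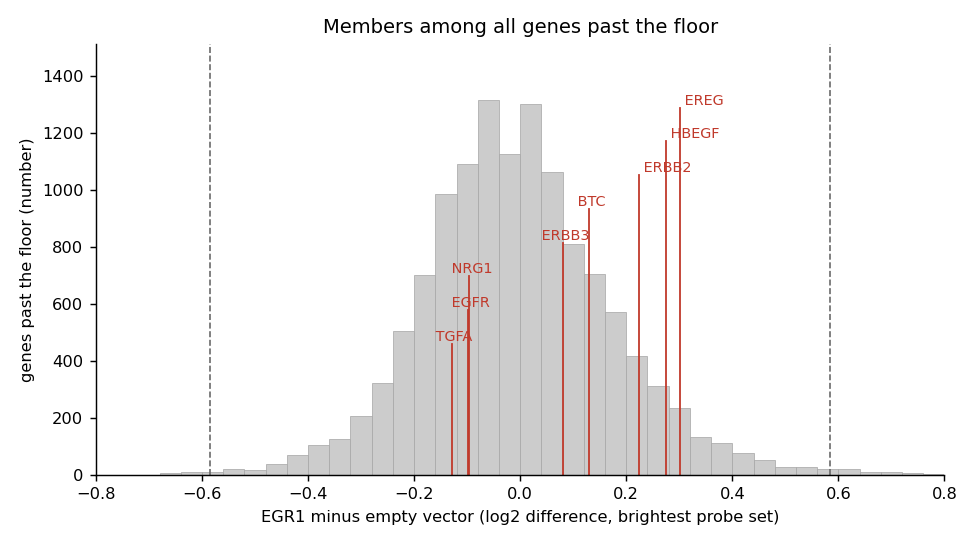
Histogram of the log2 difference, EGR1 minus empty vector, of all genes past the floor (brightest probe set, x axis; number of genes, y axis), with 70 genes beyond the plotted range; red lines mark the 8 members, at heights chosen for legibility, and dashed lines 1.5-fold. The members run from -0.13 (TGFA) to 0.30 (EREG, which is itself under the floor), within the bulk of the genes.

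Other genes of the pathway were followed in 8 lists that hold 96 genes, of which 85 were measured and 73 lay past the floor. Of the 73, 6 reached 1.5-fold higher and 0 lower, against 0.941% and 0.229% of all genes past the floor. The median of the 73 was 0, beside -0.02 for all genes past the floor. The 6 fell in 3 of the lists, with 4 of them among ERK-induced transcripts, which include immediate-early genes. The lists were put together with earlier results of these arrays known, so their counts are a description.

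Among the remaining EGF family genes 2 of 6 lay past the floor and both were lower. The fourth ERBB receptor, ERBB4, read 5.32 in the EGR1 array and 5.57 in the empty-vector array, and the neuregulin NRG2 read 6.26 and 6.39. Their other probe sets were under the floor and the mean over all probe sets was 0.002 for ERBB4 and 0.009 for NRG2. Neither gene has a direction that holds across its probe sets.

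In the list of sheddases and ligand processing 1 of 11 members past the floor was at or beyond 1.5-fold higher and 0 lower. The shares over all genes past the floor were 0.941% and 0.229%. The median of the list was 0.18. ADAM15, a membrane-bound metalloproteinase of the disintegrin family, was 1.61-fold higher in 2 probe sets that shared the same values (8.35 in the EGR1 array and 7.66 in the empty-vector array). All 6 ADAM15 probe sets were higher, from 0.22 to 0.69. ADAM17, the main sheddase of HBEGF, TGFA and AREG, differed by 0.12, and ADAM10, which sheds BTC, by -0.04. The proprotein convertase FURIN differed by 0.21, and ADAM19 by 0.22 although its other probe set past the floor gave -0.22.

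In the list of receptor down-regulation and inhibitors 1 of 15 members past the floor was at or beyond 1.5-fold higher and 0 lower. The shares over all genes past the floor were 0.941% and 0.229%. The median of the list was -0.03. LRIG1, a transmembrane protein that promotes the degradation of ERBB receptors, reached 1.80-fold higher in its brightest probe set, 11755110_a_at, which read 6.80 in the EGR1 array and 5.95 in the empty-vector array. Its other probe set, under the floor, read 4.98 and 4.84. The ERBB inhibitor ERRFI1 (-0.04) and the ubiquitin ligase CBL (-0.06) differed by less than the spread between probe sets. USP8, a deubiquitinase of internalised receptors, was lower by 0.18 with all 4 probe sets below 0, and SPRY1, a Sprouty feedback inhibitor, was 0.18 higher by its brightest probe set with 2 of 3 below 0.

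No member of the adaptor, RAS-RAF-MEK-ERK, PI3K-AKT or SRC and STAT lists was at or beyond 1.5-fold in either direction. These lists had 11, 5, 7 and 6 genes past the floor, and 1.17% of all genes past the floor reached 1.5-fold. The medians were -0.06, 0.06, -0.03 and -0.12. The adaptor SHC1, which links receptors to RAS, was 0.27 higher with its 3 probe sets past the floor between 0.27 and 0.33, whereas NCK1 was -0.25 and the phosphatase PTPN11 -0.21. The kinase MAPK3 (ERK1) was 0.26 higher by its 1 probe set, ARAF differed by 0.09 and MAP2K1 by -0.07. Of the 4 ARAF probe sets past the floor 2 were above 0 and 2 below, and the 3 of MAP2K1 were all below. MTOR was -0.26, PIK3CB -0.21 and PDPK1 0.20. Past the floor the 2 probe sets of MTOR and the 5 of PDPK1 each went 1 way, and the other PIK3CB probe set gave 0.04. STAT5B was -0.26, JAK2 -0.17 and STAT3 -0.13. The 3 STAT5B probe sets past the floor were all below 0, whereas the other of JAK2 gave 0 and the others of STAT3 0.07 and -0.05. By the brightest probe set each of these genes was within the middle 90% of all genes past the floor.

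Of the 16 ERK-induced transcripts past the floor, 4 reached 1.5-fold higher and 0 lower, with a median of 0.17. Of all genes past the floor 0.941% were that much higher and 0.229% lower. This list too was put together with earlier results of these arrays known, so the count is a description. IER3, an immediate-early gene linked to survival, was 2.99-fold higher (12.05 in the EGR1 array and 10.47 in the empty-vector array). The AP-1 subunit FOS was 2.15-fold higher (10.22 and 9.12) and JUNB 1.87-fold higher (8.53 and 7.62). VGF, a growth factor-inducible gene of a secreted neuropeptide precursor, was 1.88-fold higher (10.80 and 9.90), and its 2 probe sets gave 0.91 each. The remaining 12 ran from -0.23 in the AP-1 subunit FOSL1 to 0.40 in the ETS factor ETV4, and the ERK phosphatase DUSP6 differed by -0.13. IER3 and JUNB each had a single probe set, of the _s_at and _x_at types, which can bind related transcripts.

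**Figure D4:**
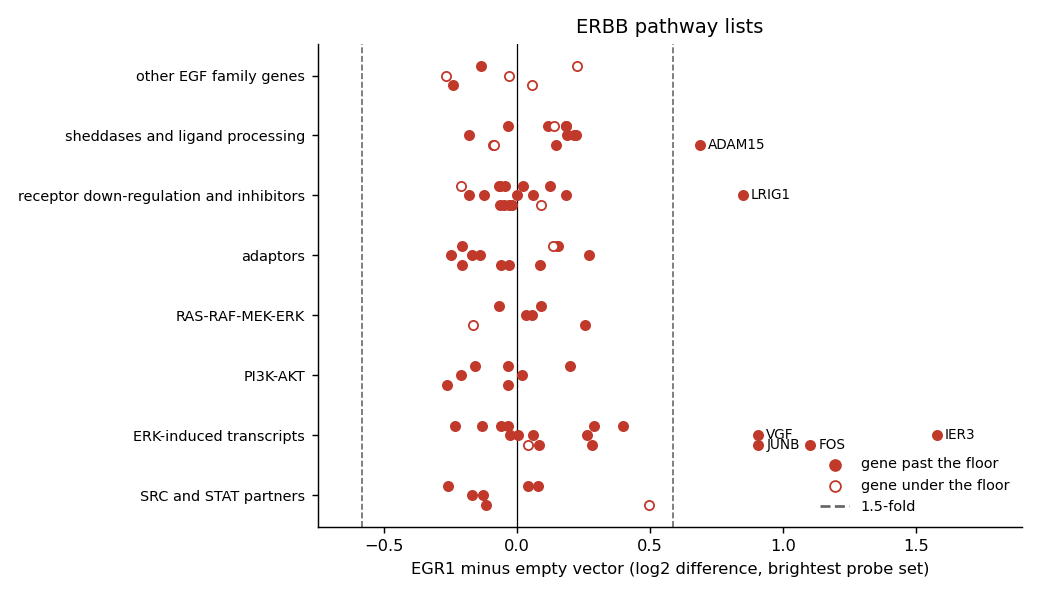
Log2 difference, EGR1 minus empty vector (x axis, brightest probe set), of each measured gene in 8 ERBB pathway lists (rows); filled points lie past the floor, open points under it, and dashed lines mark 1.5-fold. ADAM15, LRIG1, VGF, JUNB, FOS and IER3 lie beyond the right dashed line, and no gene lies beyond the left one.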

How the data were processed

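Expression in H1299 cells was measured on 2 Affymetrix arrays, 1 per group. The authors deposited log2 probe-set levels made with RMA, per the submitters' processing notes; software, settings and pooling are not given there. Gene symbols came from the platform annotation and were updated by Entrez ID from a RefSeq table (GRCh38.p14): 44961 of 44988 probe sets with 1 symbol matched. Control probe sets and those with several symbols or none were not used for genes. The brightest probe set stood for a gene, ties going to the lowest identifier. The floor was the 40th percentile of the mean log2 level, and 1.5-fold was the threshold. With 1 array per group no test was run, and the number of arrays limits the precision. Named genes were every probe set of the members and of EGR1 and, in each list, the 3 genes past the floor that differed most in either direction plus any at 1.5-fold; marker genes and list members given for their role (ADAM17, ADAM10, ERRFI1, CBL, DUSP6, FOSL1 and ETV4) were named outside that rule after values were seen. The members and lists were chosen with earlier results of these data known. Alternatives were the mean of all probe sets, leaving out _x_at and _s_at probe sets, other floors, lowess and quantile normalization and other folds. Calculations used Python 3.11.15, pandas 2.3.3, numpy 2.4.6 and statsmodels 0.14.6 and were tested on simulated data. The shifts planted there were larger than any member difference here, so that check does not cover differences of the members' size.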

Additional observations from a re-analysis of the deposited data

How the results depend on the processing

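No member gene reached 1.5-fold under any alternative that was run, and with the threshold lowered to a log2 difference of 0.32, 2 member probe sets past the floor were lower, both of EGFR. HBEGF stayed between 0.28 and 0.33 and ERBB2 between 0.15 and 0.26 under the alternatives. With the mean of all probe sets EREG was 0.03, and EGR1 read 0.89, against -0.39 by its brightest probe set. NRG1 turned to 0.04 with that mean. Without _x_at and _s_at probe sets EGFR was -0.27, NRG1 -0.26 and ERBB3 0.31. With the floor at the 60th percentile the members' median was -0.10, since the dim members were left out, and without _x_at and _s_at probe sets it was 0.00083. ADAM15 and LRIG1 were no longer at 1.5-fold with the mean of all probe sets, and LRIG1 was not counted with the floor at the 60th percentile, which it lay under. IER3 and JUNB had no probe set left without the _x_at and _s_at types. Of 200 alternative values 186 moved by less than the pooled SD between probe sets or, for counts, by no more than 1.5 times. Many of the 200 were counts that were already 0 in the main setting. The tally is therefore no measure of how firm the differences are. No paired analysis was possible because each group held 1 array.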
